A study of Mus musculus with 6 samples.

Results

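The replication-dependent histone genes supply the histone proteins that package newly copied DNA. They were taken as every protein-coding row of the deposited count table whose symbol starts with Hist1h, Hist2h, Hist3h or Hist4, which gave 67 genes of 54532 gene rows. Another 3 rows with such symbols belonged to another class and were left out. The 67 genes comprised 6 for the linker histone H1, 18 for H2A, 18 for H2B, 12 for H3 and 13 for H4. The Hist1 cluster on mouse chromosome 13 held 54 of them, the Hist2 cluster on chromosome 3 held 10, the Hist3 cluster on chromosome 11 held 2, and Hist4h4 lay alone on chromosome 6.

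Expression was measured by RNA sequencing in CD4 T cells, the helper lymphocytes, taken from lymph nodes and spleen of the C57BL/6 strain. The controls carried the genotype label iCD4-PRMT5fl/fl (floxed Prmt5 alleles, replicates 1, 2 and 4) and the knockouts the label iCD4-PRMT5delta/delta (deleted Prmt5 alleles, replicates 1, 4 and 5), with 3 biological replicates per genotype as the series states. Cells of both genotypes had been stimulated for 48 h on coated antibodies to CD3 and CD28, without added cytokines. The sources used here do not give the driver of the deletion, its timing or the age of the mice. Prmt5, the enzyme that deposits most symmetric dimethylarginine on proteins, histone tails among them, was at 134, 133 and 98.2 CPM (read counts scaled to the size of their library) in controls 1, 2 and 4 and at 41.1, 34.2 and 36.7 CPM in knockouts 1, 4 and 5.

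Core histones H2A, H2B, H3 and H4 form the protein spool of the nucleosome, and H1 binds the linker DNA that enters and leaves it. Replication-dependent histone genes are switched on in S phase, and a T cell that leaves rest to divide makes their RNA in large amounts. These messages usually lack a poly(A) tail and end instead in a short stem-loop, which stem-loop binding protein (Slbp) recognises. The libraries had been depleted of ribosomal RNA rather than selected for poly(A), so RNA without a tail could be counted.

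Short stretches after the stop codon show this ending directly, and they are printed here for members whose values are described below. Read 5′ to 3′ from GENCODE M21 transcripts (GRCm38), with the 16 bases of the stem-loop in capitals, they were:
Hist1h2bg: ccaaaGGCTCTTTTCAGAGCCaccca
Hist1h3c: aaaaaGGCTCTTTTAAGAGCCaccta
Hist1h3g: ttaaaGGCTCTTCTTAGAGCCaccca
Hist1h4h: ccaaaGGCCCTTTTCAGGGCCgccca
Hist4h4: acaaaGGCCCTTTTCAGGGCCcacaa
Hist2h2ac: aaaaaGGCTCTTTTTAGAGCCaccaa
Hist3h2a: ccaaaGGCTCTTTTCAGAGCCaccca
The pattern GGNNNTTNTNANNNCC was searched on the coding strand within 100 bases of the stop codon. It was present in 46 of the 51 members with at least 40 annotated bases there (90.2%), against 35 of 20624 other protein-coding genes (0.17%). The remaining 16 members had shorter annotated ends and no match. All but Hist2h3b, which had 37 bases there, were too short to hold the 16 bases. The form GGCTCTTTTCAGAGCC was shared by 26 members, and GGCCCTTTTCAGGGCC by 7. Hist2h2be, Hist1h2bc, Hist1h2bq and Hist1h2br, all H2B genes with long annotated ends, had no match to the pattern in this window. Neither did Hist1h1a, with 48 bases there. This says only that these letters are not there.

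Upstream regions of 4 members, from RefSeq (GRCm38.p6, 300 bases around the gene start), are printed because the first is shared by a pair of genes with like values, the second by a pair with opposite values, the third belongs to the other gene that was higher in every knockout, and the last to the member with the smallest p. Capitals mark 3 motifs searched on both strands, namely the CCAAT box, the TATA box as TATAAA, and the octamer ATTTGCAT:
Hist1h2bg, chr13:23571150-23571449, plus strand: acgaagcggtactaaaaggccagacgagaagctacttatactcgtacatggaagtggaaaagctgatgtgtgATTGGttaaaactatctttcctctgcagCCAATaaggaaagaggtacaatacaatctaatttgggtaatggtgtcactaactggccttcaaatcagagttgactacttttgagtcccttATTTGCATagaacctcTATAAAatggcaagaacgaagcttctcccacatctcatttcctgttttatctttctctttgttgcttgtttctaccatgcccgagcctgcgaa
Hist2h2ac, chr3:96220831-96221130, minus strand: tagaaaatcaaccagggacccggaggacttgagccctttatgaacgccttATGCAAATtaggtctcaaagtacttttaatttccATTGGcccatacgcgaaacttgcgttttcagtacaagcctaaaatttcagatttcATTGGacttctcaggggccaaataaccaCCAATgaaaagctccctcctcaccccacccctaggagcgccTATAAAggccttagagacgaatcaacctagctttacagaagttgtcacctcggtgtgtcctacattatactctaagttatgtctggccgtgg
Hist3h2a, chr11:58954435-58954734, plus strand: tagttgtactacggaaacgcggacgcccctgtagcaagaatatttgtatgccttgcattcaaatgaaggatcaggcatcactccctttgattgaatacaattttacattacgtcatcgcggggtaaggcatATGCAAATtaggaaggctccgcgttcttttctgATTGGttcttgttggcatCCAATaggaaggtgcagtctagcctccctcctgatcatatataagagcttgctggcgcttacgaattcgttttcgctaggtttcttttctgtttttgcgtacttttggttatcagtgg
Hist4h4, chr6:136804382-136804681, minus strand: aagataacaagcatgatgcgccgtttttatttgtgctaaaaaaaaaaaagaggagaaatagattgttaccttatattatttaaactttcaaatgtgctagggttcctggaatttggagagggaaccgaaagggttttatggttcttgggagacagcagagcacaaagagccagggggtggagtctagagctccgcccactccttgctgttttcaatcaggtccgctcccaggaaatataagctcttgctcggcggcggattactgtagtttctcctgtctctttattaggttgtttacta
CCAAT occurred in the windows of 53 of 62 members with an entry (85.5%), against 37.3% of 32788 other promoters. It was found in all H1, H2A, H2B and H3 windows and in 3 of 12 H4 windows. TATAAA occurred in 56.5% of member windows, against 13.5% of the others. The octamer was present in 7 of 18 H2A and 7 of 16 H2B windows and in no H1, H3 or H4 window, against 1.7% of other promoters.

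Gene counts per library ranged from 29623513 to 39832588. A tag in the column names, which the sources used here do not explain, divides the libraries into tag A (control 1, control 2 and knockout 1) and tag B (control 4, knockout 4 and knockout 5). Of the markers of CD4 T cells, the sum was 815 to 1024 CPM across the 6 libraries, while the 2 CD8 genes summed to 7.08 to 19.6 CPM. All 5 B cell markers had a higher mean in the knockouts, and their sum was 3.24 to 4.87 CPM in controls, 4.14 CPM in knockout 4, and 17.6 and 19.5 CPM in knockouts 1 and 5. The 4 monocyte markers summed to 1.89 to 5.36 CPM in controls and 2.95 to 16.2 CPM in knockouts. The 4 dendritic cell markers summed to at least 1.15 CPM in controls and 1.91 to 7.07 CPM in knockouts, with every knockout above every control. Of the NK cell markers, the sums were 0.39 to 0.67 CPM in controls and 0.38 to 1.77 CPM in knockouts, of neutrophil markers 0.20 to 0.82 and 0.46 to 0.67 CPM, and of platelet markers 9.75 to 15.9 and 10.9 to 35.8 CPM. The 4 erythroid markers summed to 0.026 to 0.15 CPM in controls and 0.029 to 0.35 CPM in knockouts, with Hba-a1 and Hbb-bs at 0 in all libraries. In bulk samples, fewer cells in S phase and less histone RNA per cell cannot be told apart.

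The 67 histone genes together took 1.92, 2.13 and 1.95% of all gene counts in controls 1, 2 and 4, and 1.58, 1.66 and 1.32% in knockouts 1, 4 and 5. Every knockout lay below every control. On CPM scaled with TMM library sizes the sum was 20284 ± 995 in controls and 15036 ± 2102 in knockouts (mean ± SD, n = 3 each), a knockout over control ratio of 0.741. The ratio was 0.730 within tag A and 0.750 within tag B.

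The 5 histone types were lower by similar amounts. H2B summed to 4137, 4406 and 4250 CPM in controls and 2988, 3509 and 2572 CPM in knockouts, a ratio of 0.709. H3 summed to 3607, 4013 and 3728 CPM against 2749, 3145 and 2327 CPM, a ratio of 0.724. For both types, all knockouts lay below all controls. The ratios were 0.748 for H4, 0.763 for H2A and 0.766 for H1, and the groups did not overlap for these types either. The proportions of the types were similar in all libraries. H4 made up 25.0 to 27.5% of histone counts in the 6 libraries, H1 23.1 to 25.1%, H2B 19.7 to 21.4%, H3 17.9 to 18.8% and H2A 9.65 to 11.3%. These sums carry no test. How reads that match several histone genes were counted is not stated, so the shares of the types relative to each other are uncertain.

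**Figure D1:**
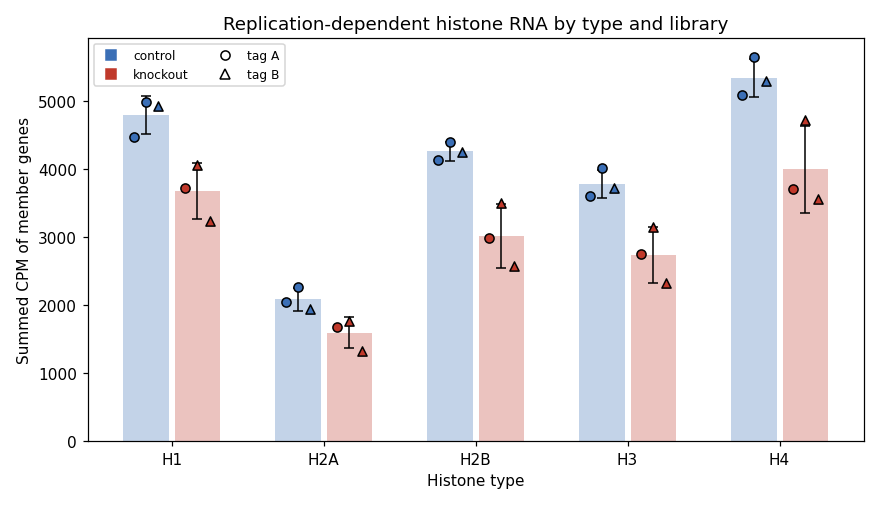
Summed CPM of the member genes of each histone type. Bars are means of 3 libraries with SD, points are libraries, and the marker shape gives the column tag. In each type the 3 knockouts sit below the 3 controls, with knockout 5 lowest and knockout 4 highest among knockouts.

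Knockout 4 was the knockout closest to the controls for each type, and it was the one with B cell markers at 4.14 CPM, within the range of the controls. Its dendritic cell markers, at 1.91 CPM, lay above every control. Without knockouts 1 and 5, which leaves 1 knockout against 3 controls, the ratio of the sums was 0.822 for H2B and 0.884 for H4. The S phase and DNA replication genes summed to 7200 ± 209 CPM in controls and 6391 ± 614 CPM in knockouts (mean ± SD, n = 3 each), a ratio of 0.888. Whether the foreign markers or the S phase genes have a part in the histone values was not tested.

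In 62 of the 67 members the counts were high enough for a test. The remaining 5, Hist1h1t, Hist1h2aa, Hist1h2ba, Hist2h2aa1 and Hist2h3c1, were at 0.57 CPM per kilobase (kb) or less, and Hist2h3c1 had no count in any library. Hist1h1t, Hist1h2aa and Hist1h2ba are known as genes of the testis. No member passed an adjusted p of 0.05 in edgeR's quasi-likelihood test on genotype alone, and neither did any of the 15685 genes tested, Prmt5 included (0% called in either direction). At an unadjusted p under 0.05, 37 members were lower and 2 higher in knockouts, beside 4.79% lower and 6.56% higher among all genes. DESeq2 on the same counts called 5 members lower and none higher, beside 1.21% and 1.61% of all genes.

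Without a threshold, 58 of the 62 tested members had a negative log2 fold change, beside 49% of all genes, and 53 lay between -0.25 and -0.75. The median was -0.43, beside 0.01 for all genes. In 44 members every knockout was below every control, beside 8.68% of all genes. Only Hist2h2be and Hist3h2a had every knockout above every control, a pattern found in 9.35% of all genes. Members with fully separated lower knockouts numbered 10 of 11 for H3, 10 of 13 for H4, 12 of 17 for H2B, 9 of 16 for H2A and 3 of 5 for H1. Inside both tag A and tag B, 57 members were lower and 2 higher in the knockouts. Without knockouts 1 and 5 the median was -0.23, beside -0.03 for all genes.

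**Figure D2:**
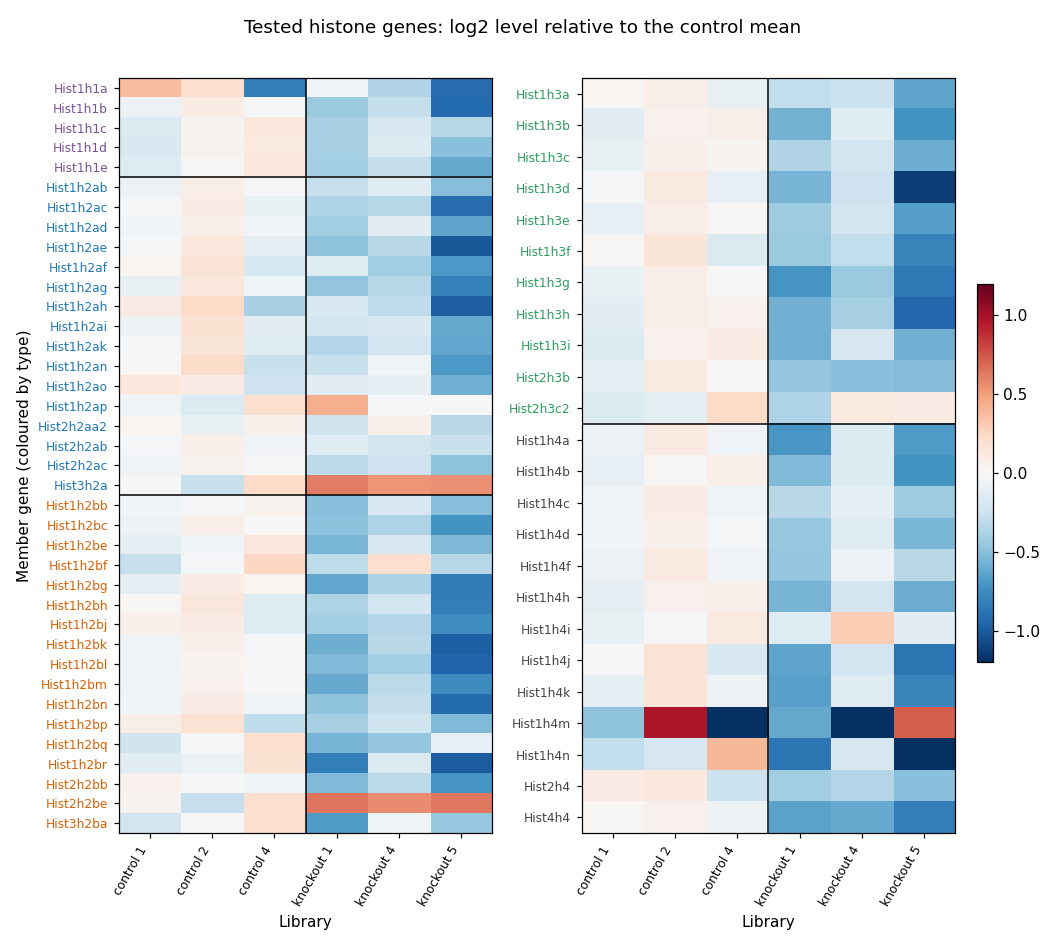
Log2 level of each tested member in each library relative to its control mean, with a pseudocount of 0.5 CPM, genes in rows coloured by type and libraries in columns. Most rows are blue in the 3 knockouts, deepest in knockout 5, while Hist2h2be and Hist3h2a are red there and Hist1h4m, clipped at the ends of the scale, follows no group.

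With the column tag as a second term beside genotype, edgeR's quasi-likelihood test called 9 members lower and none higher, beside 3.63% lower and 2.87% higher among all genes. Of the 9, 6 encode H2B (Hist1h2bc, Hist1h2be, Hist1h2bg, Hist1h2bl, Hist1h2bm and Hist2h2bb), 2 encode H3 (Hist1h3g and Hist2h3b) and 1 encodes H4 (Hist4h4). No H1 or H2A gene was among them. Their adjusted p ranged from 0.0209 to 0.0496 in edgeR. DESeq2 with this term called 35 members lower and 1, Hist2h2be, higher, beside 8.17% and 6.99%. These 35 were 4 H1, 4 H2A, 11 H2B, 8 H3 and 8 H4 genes. The count moved strongly with single libraries in edgeR. With the tag term it was 47 without knockout 4, beside 6.14% lower among all genes, and 10 without knockout 5, beside 3.44%. It was 0 without any 1 of the other 4 libraries, where 0 to 0.549% of all genes were called lower. Without control 4, tag B holds only knockouts, and without knockout 1, tag A holds only controls. The genotype values of those fits rest on the other tag alone. Scaled to ERCC spike-in counts with the tag term, no member was called, beside 2.01% lower and 0.491% higher among all genes, with a median of -0.89 beside -0.44 for all genes.

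Hist4h4 (ENSMUSG00000096010.2, chromosome 6, positions 136801553 to 136804415, minus strand, GRCm38) gave the smallest p of the family. It encodes the same H4 protein as the other 12 H4 genes. Controls 1, 2 and 4 held 211, 217 and 201 CPM, and knockouts 1, 4 and 5 held 134, 138 and 118 CPM. The groups stood well apart, with each close together. The log2 fold change was -0.69 ± 0.12 (SE; edgeR adjusted p = 0.214) on genotype alone and -0.66 ± 0.10 (edgeR adjusted p = 0.0209) with the tag term. Of its 50-base windows, 8.5% occur at another locus, over an annotated length of 2863 bases that runs far beyond the coding part.

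Hist1h3g (chromosome 13, positions 23535422 to 23535951, plus strand, GRCm38) and Hist2h3b (chromosome 3, positions 96268654 to 96269141, plus strand) encode H3. Hist1h3g stood at 228, 255 and 242 CPM in controls and at 148, 178 and 133 CPM in knockouts. Its log2 fold change with the tag term was -0.67 ± 0.13 (SE; edgeR adjusted p = 0.0345). Hist2h3b stood at 185, 216 and 199 CPM in controls and at 144, 141 and 139 CPM in knockouts, the 3 knockouts within 5 CPM of each other. Its value with the tag term was -0.49 ± 0.10 (SE; edgeR adjusted p = 0.0349). These 2 genes encode different H3 proteins: Hist1h3g shares its protein with Hist1h3a, Hist1h3h and Hist1h3i, and Hist2h3b with 7 other genes. Summed over each group, the first was at 0.707 of the control level in knockouts and the second at 0.732.

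Among the H2B genes, Hist1h2bc was at 239, 260 and 249 CPM in controls and 177, 193 and 151 CPM in knockouts. Hist1h2bm was at 409, 441 and 424 CPM in controls and 279, 339 and 249 CPM in knockouts. No knockout reached a control for either gene. With the tag term their log2 fold changes were -0.51 ± 0.12 and -0.57 ± 0.13 (SE; edgeR adjusted p = 0.0445 and 0.0482). Hist1h2bg, Hist1h2bl, Hist1h2be and Hist2h2bb, named after their values were seen because they were called, had values of -0.62, -0.60, -0.48 and -0.50. The 2 most abundant H2B genes per kb, Hist1h2bn and Hist1h2bb, were at -0.51 (edgeR adjusted p = 0.0937) and -0.43 (edgeR adjusted p = 0.0620) and did not pass.

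**Figure D3:**
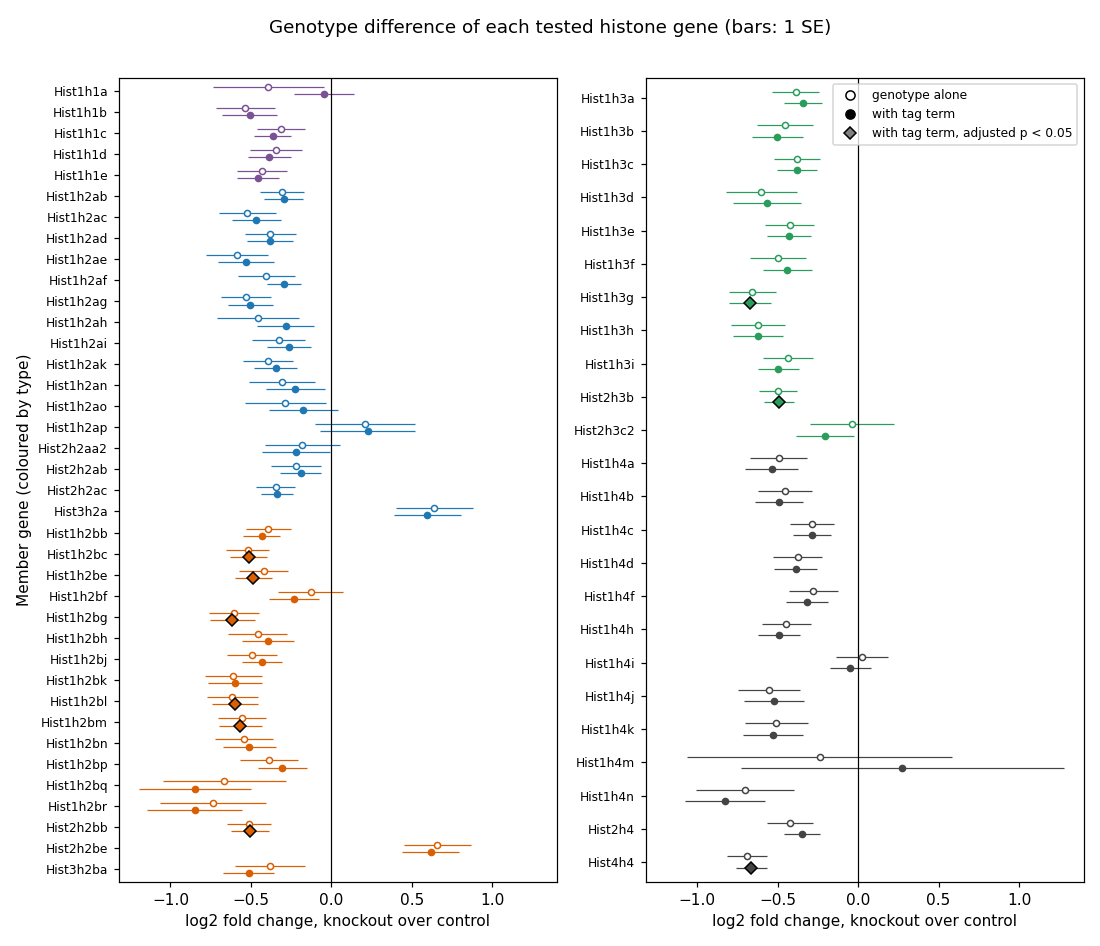
Log2 fold change, knockout over control, of each tested member in edgeR fits on genotype alone (open) and with the column tag as a term (filled), with 1 SE, coloured by type. Diamonds mark the 9 members past an adjusted p of 0.05 with the tag term. Nearly all points lie left of 0, and Hist2h2be and Hist3h2a lie near 0.6 in both fits.

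With the tag term, no H4 gene other than Hist4h4 passed in edgeR, while DESeq2 with that term called 8 of the 13 H4 genes lower. Hist1h4f, the most abundant member per kb, was at 664, 749 and 675 CPM in controls and 506, 662 and 553 CPM in knockouts, with all knockouts below all controls. On genotype alone its log2 fold change was -0.28 ± 0.15 (SE). That was smaller in size than the values of Hist1h4k at -0.51 and Hist1h4h at -0.45 in the same fit. This difference between genes was not tested. Hist1h4i, named after its values were seen, was the H4 gene nearest to 0 on genotype alone, with 64.3, 67.0 and 73.7 CPM in controls and 61.5, 84.4 and 62.6 CPM in knockouts. Hist1h4m, also named after its values were seen, ran from 7.85 to 52.0 CPM among controls and from 6.05 to 43.5 CPM among knockouts. It shares 89.8% of its 50-base windows with another locus, and with its near-copy Hist1h4n it summed to 225, 272 and 342 CPM in controls and 155, 228 and 151 CPM in knockouts.

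For H2A, Hist1h2ak was the most abundant gene per kb and made up 23.2 to 24.4% of the H2A sum in each library. It stood at 494, 554 and 452 CPM in controls and at 391, 426 and 324 CPM in knockouts, without overlap. On genotype alone its log2 fold change was -0.39 ± 0.16 (SE; edgeR adjusted p = 0.396). With the tag term it was -0.35 ± 0.13 (SE; edgeR adjusted p = 0.136). Hist1h2ab and Hist1h2ai were at -0.31 and -0.33 on genotype alone. Hist2h2ac, whose stem-loop is printed above, was at 312, 330 and 319 CPM in controls and 258, 269 and 229 CPM in knockouts, without overlap. Its value on genotype alone was -0.35 ± 0.12 (SE; edgeR adjusted p = 0.348). None of these H2A genes passed in either edgeR fit. The smallest adjusted p of any H2A gene with the tag term was 0.0684 in edgeR. DESeq2 with the tag term called 4 H2A genes lower, Hist2h2ac among them.

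The 5 tested H1 genes each encode a different linker histone. With the tag term, edgeR called none of them lower, while DESeq2 called all but Hist1h1a lower. Hist1h1c was the most abundant per kb, with 1153, 1334 and 1420 CPM in controls and 987, 1131 and 1026 CPM in knockouts. Hist1h1e stood at 1155, 1301 and 1409 CPM against 972, 1055 and 841 CPM. Both had all knockouts below all controls. On genotype alone, their log2 fold changes were -0.31 ± 0.15 and -0.43 ± 0.16 (SE; edgeR adjusted p = 0.482 and 0.355). Hist1h1b was at -0.53 ± 0.19 (SE; edgeR adjusted p = 0.342) in that fit. With the tag term, Hist1h1c, Hist1h1e and Hist1h1b were at -0.36, -0.46 and -0.51 (edgeR adjusted p = 0.0854, 0.0750 and 0.102).

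Hist1h1a (chromosome 13, positions 23763666 to 23764406, plus strand, GRCm38) divided the libraries by column tag. It was at 578, 514 and 438 CPM in control 1, control 2 and knockout 1 (tag A) and at 251, 349 and 237 CPM in control 4, knockout 4 and knockout 5 (tag B). Its share of the H1 sum ran from 5.08 to 12.9%. With genotype in the model, tag B over tag A was -0.85 on the log2 scale (edgeR adjusted p = 0.0132). Hist1h2af, an H2A gene, was also lower in tag B, at -0.35 (edgeR adjusted p = 0.0376), and no member was higher, beside 16.5% lower and 15.7% higher among all genes. Without single libraries, from 0 to 7 members differed by tag, with 7 without knockout 4, 5 without knockout 5, 1 without control 1 or control 2, and 0 without control 4 or knockout 1. Over all genes, 5045 differed by tag in edgeR with all 6 libraries, and 1284 (without knockout 1) to 5202 (without knockout 5) with 1 library left out. The genotype value of Hist1h1a was -0.39 ± 0.34 (SE) on genotype alone and -0.05 ± 0.19 (SE) with the tag term, neither past the test, and the sign was positive in 5 alternatives.

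Hist2h2be, an H2B gene (chromosome 3, positions 96221119 to 96223738, plus strand, GRCm38), and Hist3h2a, an H2A gene (chromosome 11, positions 58954685 to 58956830, plus strand), had the opposite sign. Hist2h2be was at 5.56, 4.39 and 6.30 CPM in controls and at 8.72, 8.28 and 8.66 CPM in knockouts. Hist3h2a was at 2.93, 2.36 and 3.55 CPM in controls and at 4.79, 4.46 and 4.55 CPM in knockouts. Both were higher in every knockout than in every control and low in level beside the main genes of their types. Their log2 fold changes on genotype alone were 0.66 ± 0.21 and 0.64 ± 0.24 (SE; edgeR adjusted p = 0.320 and 0.373), and neither passed with the tag term in edgeR (adjusted p = 0.0737 and 0.112). Scaled to ERCC spike-in counts, which lowered the median of all genes to -0.59, they were at 0.11 and 0.10. Hist2h2be and Hist3h2a share 0 and 2.0% of their 50-base windows with other loci. Hist3h2a overlaps Trim17 on the same strand, and reads of the overlap cannot be assigned from these files.

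H2A and H2B genes often lie head to head and share the region between their starts. By GENCODE coordinates, 12 such pairs had starts within 500 bases of each other, 176 to 306 bases apart. In 9 of the 11 pairs with both genes tested, both values on genotype alone were negative. Hist1h2ae and Hist1h2bg, which share the first upstream region printed above, were at -0.58 and -0.60. Hist1h2ag and Hist1h2bj were at -0.53 and -0.49. Hist2h2ac and Hist2h2be, whose starts lie 239 bases apart across the second region, were at -0.35 and 0.66. This was the widest gap of the 11 pairs in that fit. Their levels also differed, at 550 CPM per kb for Hist2h2ac and 2.67 CPM per kb for Hist2h2be. The pairs were described after the members' values were known and carry no test.

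**Figure D4:**
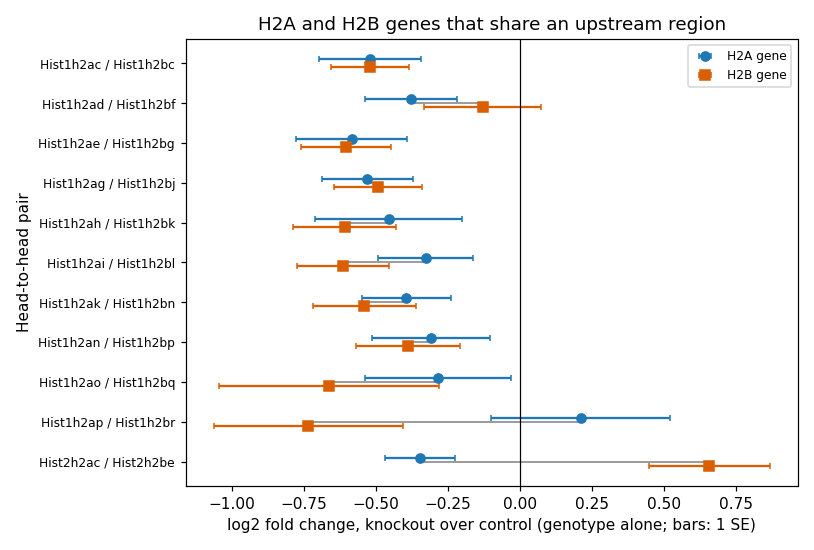
Log2 fold change, knockout over control, on genotype alone with 1 SE, for the H2A gene (circle) and the H2B gene (square) of each of 11 head-to-head pairs. Both genes lie left of 0 in 9 pairs, and the last pair, Hist2h2ac and Hist2h2be, spans 0.

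Members differed widely in level. Over the 6 libraries the median was 348 CPM per kb, 26 members were above 500 and 13 below 10. Hist1h4f was highest, at 1624 CPM per kb, followed by Hist1h4k at 1358, Hist1h4h at 1341, Hist1h2ak at 1120 and Hist1h2bn at 1073. For a few genes with long annotated isoforms, among them Hist1h1d with 7425 bases and Hist4h4 with 2863, the level per kb is lowered by the length.

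Histone genes are near-copies of each other, and the sources used here do not say how the authors' counting treated reads that match several of them. All 13 H4 genes encode 1 protein from 12 distinct coding sequences, and 9 H2A genes encode another single protein. Of the 67 members, 15 had at least 80% of their 50-base windows at another locus, and 6 of these were below 10 CPM per kb. On genotype alone, the median log2 fold change was -0.45 for the 14 tested members with at least 80% shared windows. It was -0.45 for the 33 with 20 to 80%, and -0.42 for the 15 with less than 20%. Levels of single near-copies, such as Hist1h2ao and Hist1h2ap or Hist1h2bq and Hist1h2br, are uncertain. Hist1h1e and Hist1h2be also overlap each other on the same strand.

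Activation raised nearly the whole family. The unstimulated cells enter here only through the fold changes of the authors' deposited table, turned to read activated over unstimulated. In the authors' deposited table, 60 of 62 members with a value were higher after activation in controls and 2 were lower at an adjusted p of 0.05, beside 27.7% higher and 42.7% lower among its 19888 genes. The median log2 change in that table of the authors was 3.62. By type, the medians in the authors' deposited table were 3.85 for H2A, 3.82 for H3, 3.58 for H2B, 3.50 for H1 and 3.21 for H4.

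The size of the response differed between members. In the authors' deposited table the highest control values were 5.09 for Hist1h2bk, 4.94 for Hist1h2ah, 4.90 for Hist1h2ag and 4.84 for Hist1h1b. A log2 value of 5.09 is a 34.2-fold difference. The lowest positive values in the authors' deposited table were 1.74 for Hist2h2ab, 1.85 for Hist3h2ba and 1.94 for Hist1h1c, the abundant linker histone. Hist3h2a and Hist2h2be, the genes with higher levels in knockouts, were the 2 that were lower after activation in the authors' deposited table, at -2.73 and -0.52. Hist2h2ac, the head-to-head partner of Hist2h2be, stood at 2.68 in the authors' deposited table.

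In knockouts, the authors' deposited table had 59 members higher and 1, Hist3h2a at -1.93, lower after activation, beside 25.8% and 35.3% of all genes. Hist1h4m, at 1.22, and Hist2h2be, at -0.13, did not pass in the authors' deposited table (adjusted p = 0.0882 and 0.528). The median in the authors' deposited table was 3.39, and by type it was 3.52 for H2A, 3.51 for H3, 3.45 for H2B, 3.37 for H1 and 2.59 for H4. Whether activation differs between the genotypes was not tested. The activated libraries in these comparisons are those of the genotype comparison above, so the 2 are not independent.

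**Figure D5:**
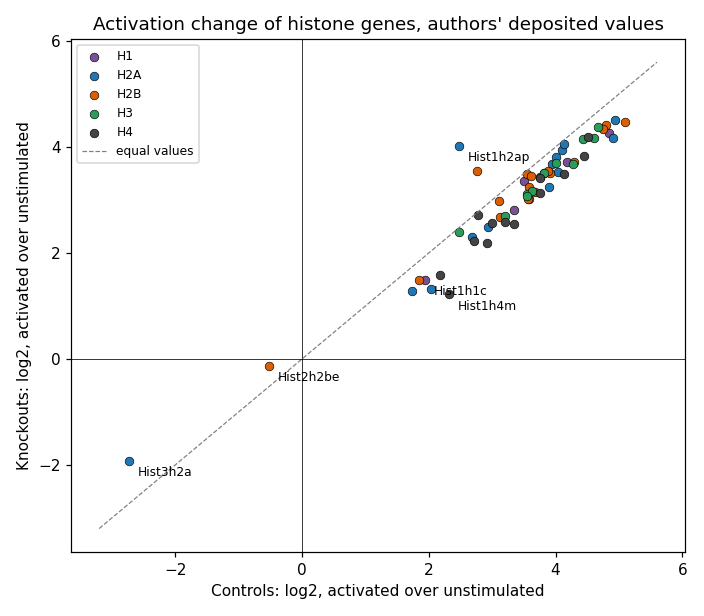
Log2 change with activation of each member in controls (horizontal) and knockouts (vertical), from the authors' deposited table, coloured by histone type, with a dashed line of equal values. Most members lie between 2 and 5 on both axes, and Hist2h2be and Hist3h2a lie below 0.

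For the genotypes themselves, the authors' deposited table called 3 members lower in activated knockouts, Hist4h4 at -0.67, Hist1h2bg at -0.52 and Hist1h2bc at -0.45 (adjusted p = 9.0e-05, 0.0198 and 0.0293), and 1 higher, Hist2h2be at 0.51 (adjusted p = 0.0228). The background in the authors' deposited table was 2.32% lower and 2.48% higher. In unstimulated cells the authors' deposited table called no member by genotype, and all 62 log2 values lay within 0.0001 of 0, as did 19736 of the 19888 genes in that comparison, so no size can be read from them. Over all genes, that comparison in the authors' deposited table called 1 of 19888 higher and 2 lower (0.00503% and 0.0101%).

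The factors that make and handle histone RNA form the first of the related lists. Of 22 tested genes for transcription, processing and decay of histone RNA, none passed on genotype alone, and with the tag term 1 was higher and 1 lower in edgeR, beside 2.87% higher and 3.63% lower among all genes, with a median of -0.03. DESeq2 with the tag term called 1 higher and 3 lower, beside 6.99% and 8.17% of all genes. Zfp473, a zinc finger protein of the machinery that cuts histone RNA, was at 8.32, 11.3 and 32.2 CPM in controls and 5.61, 7.59 and 7.58 CPM in knockouts. Its log2 fold change with the tag term was -1.47 ± 0.27 (SE; edgeR adjusted p = 0.0325), and control 4 stood far above the other controls. Gon4l was called higher with that term, at 0.44 ± 0.09 (SE; edgeR adjusted p = 0.0395), although its groups overlapped in CPM. Slbp itself was at 196, 211 and 215 CPM in controls and 160, 210 and 194 CPM in knockouts, with a value of -0.22 ± 0.10 (SE; edgeR adjusted p = 0.200). Npat and Casp8ap2, which act at the histone loci, were at -0.20 and -0.0049 with the tag term, and Lsm10 and Lsm11, subunits of the U7 particle that guides the cut, were at -0.56 and -0.06, none past the test.

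Of 24 tested histone chaperones and import factors, 2 were higher and none lower with the tag term in edgeR, beside 2.87% and 3.63% of all genes. Their median with that term was -0.03, and none passed on genotype alone. DESeq2 with the tag term called 3 higher and 1 lower, beside 6.99% and 8.17% of all genes. Tonsl, which binds newly made histones at replication forks, was at 24.3, 23.1 and 17.8 CPM in controls and 41.2, 30.7 and 30.2 CPM in knockouts, with all knockouts above all controls. Its log2 fold change with the tag term was 0.79 ± 0.11 (SE; edgeR adjusted p = 0.0178). Cabin1, a partner of the chaperone Hira, was at 0.62 ± 0.09 (SE; edgeR adjusted p = 0.0226). Hjurp, the chaperone of the centromeric H3, was at -0.55 ± 0.15 (SE; edgeR adjusted p = 0.0651) and did not pass.

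Most replication-independent histones are also made outside S phase. Of 9 tested genes, 1 was lower with the tag term in edgeR, beside 3.63% of all genes, and none on genotype alone. DESeq2 with that term called 2 lower and 1 higher, beside 8.17% and 6.99% of all genes. The gene lower in edgeR was H2afz, the H2A.Z gene, with 394, 432 and 449 CPM in controls and 297, 354 and 308 CPM in knockouts. Its log2 fold change was -0.46 ± 0.10 (SE; edgeR adjusted p = 0.0440). H2afx, the variant phosphorylated at DNA breaks, was at -0.54 (edgeR adjusted p = 0.0936) and H2afj at 0.41 (edgeR adjusted p = 0.0778). The genes for H3.3, H3f3a and H3f3b, were at -0.27 and -0.18, and the linker gene H1f0 was at 0.08, all with the tag term and none past the test. Of 30 tested S phase and DNA replication genes, none passed in either edgeR fit. DESeq2 with the tag term called 3 lower, beside 8.17% of all genes. At an unadjusted p under 0.05 with the tag term, 10 were lower and 2 higher, beside 14.1% and 15% of all genes. Their median was -0.16 with the tag term. Mcm7, a subunit of the replicative helicase, was at 453, 455 and 461 CPM in controls and 350, 353 and 264 CPM in knockouts, with a value of -0.48 ± 0.13 (SE; edgeR adjusted p = 0.0659). Cdc45 and Gins4, other parts of that helicase, were at -0.33 and -0.35. On genotype alone, edgeR's unadjusted p was under 0.05 for 2 lower genes of the RNA processing list and 2 lower S phase genes. It was also under 0.05 for 3 lower and 1 higher of the chaperones, and 2 lower and 1 higher of the replication-independent histones. Over all genes, the shares were 4.79% lower and 6.56% higher. DESeq2 on genotype alone called none of the genes of these lists, beside 1.21% lower and 1.61% higher among all genes.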

How the data were processed

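RNA from 6 activated CD4 T cell cultures was sequenced from ribosomal RNA-depleted, strand-specific libraries, per the labels' protocols. Per the file headers, the values tested are raw counts of reads for each gene as deposited, beside a gene length in base pairs. It also holds the authors' log2 fold changes and adjusted p-values, deposited without a named method and named first group over second. STAR, featureCounts, DESeq2, DESeq and GRCm38.p3 are listed without role, per the submitters' processing notes. A further 12 columns of per-sample values match no sample of the series and were not used here. Rows of the 92 ERCC spike-ins entered neither the library sizes nor the tests.

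With edgeR 4.0.16, genes passed filterByExpr at a minimum count of 10 and a minimum total of 15, and counts were scaled with TMM factors and tested two-sided with glmQLFTest on genotype, with Benjamini-Hochberg adjustment over 15685 genes at 0.05, in R 4.3.3. SE is the log2 value over the root of its F statistic. DESeq2 1.42.0 and limma 3.58.1 (voom) were alternatives, as were other scalings, filters, a replicate block, the column tag as a term and libraries left out. Fits were tested on simulated data. All 67 members matched GENCODE M21 by identifier, and for 64 the deposited length equals the exon length there. Sequence steps used Python 3.11 with Biopython.

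The members, the gene lists and the rule for named genes were chosen with earlier results of these data known. The rule took the 4 most abundant tested members per kb of each type, the 3 members and the 3 genes of each further list with the smallest p, every member called where 5 or fewer were, and genes given by symbol. The series calls the libraries biological replicates but ties none to an animal, so p-values measure the spread between these libraries. The title of knockout 4 carries a suffix that is not explained. Libraries held at most 1.8% identical counts over the tested genes in any pair, so none was counted as a repeat.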

Additional observations from a re-analysis of the deposited data

How the results depend on the processing

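The median log2 fold change of the members stayed negative in all alternatives run, from -1.04 with ERCC scaling (all genes -0.59) to -0.21 without knockouts 1 and 5 and with the tag term. On genotype alone, the count of members called lower, 0 in edgeR, was 4 without the low-count filter (0.645% of all genes lower) and 5 with DESeq2 (1.21%), and it was 0 with ERCC scaling (1.35%) and with limma-voom, RLE size factors and in each leave-one-out fit (0% of all genes in each). With the tag term it was 9 in edgeR (3.63% of all genes lower), 9 with scaling that leaves out histone rows (3.64%), 8 with limma-voom (3.87%), 6 with RLE size factors (3.68%), 42 without the low-count filter (3.96%) and 35 with DESeq2 (8.17%), which also called 1 higher (6.99%). Leaving out 1 library with the tag term gave 0 to 47 called lower, with 47 without knockout 4 (6.14% of all genes) and 10 without knockout 5 (3.44%). In these fits, the genotype values without control 4 or without knockout 1 rest on 1 tag alone. Without knockouts 1 and 5 and with the tag term, control 4 and knockout 4 are the only libraries of tag B. The genotype value of that fit therefore sets knockout 4 against control 4 alone. Its 1 residual degree of freedom comes from controls 1 and 2, and the lone knockout is assumed to vary like them. Its calls are therefore not counted here. The settings that combine another tool, scaling or filter with the tag term were chosen after seeing the data.

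With the replicate block, 4 members were called lower, beside 2.77% of all genes, and the median was -0.31. Control 2 and knockout 5 have numbers of their own, so the genotype values of that fit rest on the libraries numbered 1 and 4. The fit leaves 1 residual degree of freedom, so its 4 calls carry little weight. The controls and knockouts share only the numbers 1 and 4, and same-numbered libraries deviated together (correlations 0.67 and 0.48), but they also share a column tag, and nothing says that a number marks a pair.

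Scaled to ERCC counts, the knockout over control ratios of the sums were 0.506 for H1, 0.499 for H2A, 0.470 for H2B, 0.477 for H3 and 0.493 for H4. These ratios rest on ERCC shares that varied within each genotype. Of gene and ERCC counts together, ERCC took 0.85, 0.57 and 1.04% in controls 1, 2 and 4. In knockouts 1, 4 and 5 it took 1.25, 1.01 and 1.35%. On TMM library sizes instead, the ratios without knockouts 1 and 5 were 0.822 for H2B and 0.884 for H4. The count of members that differ by tag, 2 in the reported fit, was 0 with ERCC scaling (1148 of all genes), 6 without the low-count filter (5707 of all genes) and 0 to 7 when 1 library was left out. Hist1h1a changed sign in 5 fits: 0.037 with the replicate block, 0.48 without knockouts 1 and 5 and with the tag term, and 0.017, 0.026 and 0.20 with the tag term and without control 1, knockout 5 and knockout 1. Hist1h2ah turned to 0.093 without knockouts 1 and 5 and with the tag term. The cause was not tested. Depth limits mainly the members near 1 CPM, and the 3 libraries per genotype limit all members.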
